A study of Mus musculus with 5 samples.

Results

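Translation factors are the proteins that start and drive protein synthesis on the ribosome. Here they comprised every array spot that maps to exactly 1 gene symbol beginning with Eif and a digit from 1 to 6, or with Eef1 or Eef2. The 5 spots of Eif2s3x and Eif2s3y were left out. These symbols took in 124 spots of 61 genes, out of 32042 spots with 1 gene symbol and 44290 spots in all. Of the 61 genes, 23 had 1 spot and 38 had several, up to 5, so that spots of 1 gene share a target. The name rule also takes in the pseudogene Eif2s3x-ps1. Spots under the symbols Eif1, Eif2s1 and Eif4g1 were not among those analysed.

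The study asked how the nucleus accumbens, a reward centre of the ventral striatum, differs between cocaine-treated mice with a low place preference score and saline-treated mice. The cocaine group was male C57BL6 mice given cocaine at 15 mg/kg on days 2, 3 and 4 of a conditioned place preference protocol, in which an animal learns to link a chamber with a drug. The saline group was male C57BL6 mice given saline solution on the same days. The sources used here give no ages. On each of 5 Agilent whole mouse genome arrays a cocaine-treated mouse was set against a saline-treated one, with cocaine in the Cy5 dye on 3 arrays (cocaine-in-Cy5 replicates 1 to 3) and in the Cy3 dye on 2 arrays (cocaine-in-Cy3 replicates 1 and 2). The series text calls the 5 measurements independent, but the names of the cocaine animals of cocaine-in-Cy5 replicates 1 and 2 differ only by a suffix, and whether they were separate animals was not tested.

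The start of translation runs through a fixed relay. The factor eIF2 brings the initiator tRNA to the small ribosomal subunit, eIF3 is the large scaffold on that subunit, and eIF4F recognises the messenger cap and unwinds the leader. The factors eIF5 and eIF5B then help the subunits join. During elongation, eEF1A delivers each charged tRNA, the eEF1B complex recharges eEF1A with GTP, and eEF2 moves the ribosome along. In neurons, phosphorylation of eIF2 and eEF2 and the binding of eIF4E by its inhibitors are known brakes on synthesis. These acts on proteins are not read by a messenger RNA array.

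Each deposited value is the log2 of one channel over the other, with numerator unknown. Among the 238 gene-less features with the strongest mean ratios, 184 changed sign between the 2 orientations and 0 had the same sign throughout. A feature with a dye bias changes sign between orientations where the ratio follows the treatments, and keeps its sign where the ratio follows the dyes. That pattern is the basis for the likely reading, in which cocaine and saline take the same places in the ratio of all 5 arrays. Cocaine-in-Cy5 replicate 1 nevertheless correlated over all spots at -0.03 and -0.32 with replicates 2 and 3 of the same orientation. With cocaine-in-Cy3 replicates 1 and 2 it correlated at 0.47 and 0.38. These correlations are of values as deposited, which hold the trend with brightness described below. After that trend was removed, over 4021 gene spots, they were 0.16 and -0.10 with cocaine-in-Cy5 replicates 2 and 3. With cocaine-in-Cy3 replicates 1 and 2 they were then -0.18 and 0.01. The direction is taken as not settled. A positive ratio is therefore called the numerator side and a negative ratio the denominator side, with no statement on which of cocaine and saline is the numerator. Values with the sign of cocaine-in-Cy5 replicate 1 turned, and under a reading of Cy5 over Cy3 on every array, stand beside the results.

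Brightness was recovered from the exact fractions behind the ratios of the 3 cocaine-in-Cy5 arrays, and a spot counted as above background when its recovered log2 brightness was over 7.5. Of the 124 translation factor spots, 34 (27.4%) were above background, against 4021 of 32042 gene spots (12.5%). In genes, 28 of 61 (45.9%) had a spot above background, against 18.4% of all genes. As for the tissue, 8 of 8 marker genes of medium spiny neurons with a spot, 3 of 7 of astrocytes, 3 of 5 of oligodendrocytes, 0 of 5 of microglia, 1 of 5 of endothelium, 0 of 4 of choroid plexus and ependyma and 3 of 4 of blood were above background. No marker spot was called in either fit. In bulk tissue, fewer cells of a type and less RNA per cell cannot be told apart.

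The roles differed in how many genes could be measured. All 5 genes of eEF1 (Eef1a1, Eef1a2, Eef1b2, Eef1d and Eef1g) and Eef2 had a spot above background. So did 9 of 13 eIF3 subunit genes (Eif3a, Eif3b, Eif3c, Eif3d, Eif3e, Eif3f, Eif3h, Eif3l and Eif3m) and 5 of 6 genes of eIF4F and its helpers (Eif4a1, Eif4a2, Eif4e, Eif4g3 and Eif4h). Of subunit joining factors, Eif5 and Eif5b were above background and Eif6 was not. Among 8 genes of initiator tRNA delivery (Eif2s2 of eIF2, Eif2b1 to Eif2b5 of its exchange factor eIF2B, and the separate factors Eif2a and Eif2d), only Eif2b2, a subunit of eIF2B, was above background. None of the 4 kinases that phosphorylate eIF2 (Eif2ak1, Eif2ak2, Eif2ak3 and Eif2ak4), with 10 spots, was above background. Neither was any spot of Eef2k, the kinase of eEF2, of Eif4ebp1, Eif4ebp2 and Eif4ebp3, the inhibitors of eIF4E, or of Eif5a, whose hypusine-bearing protein aids elongation and termination.

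**Figure D1:**
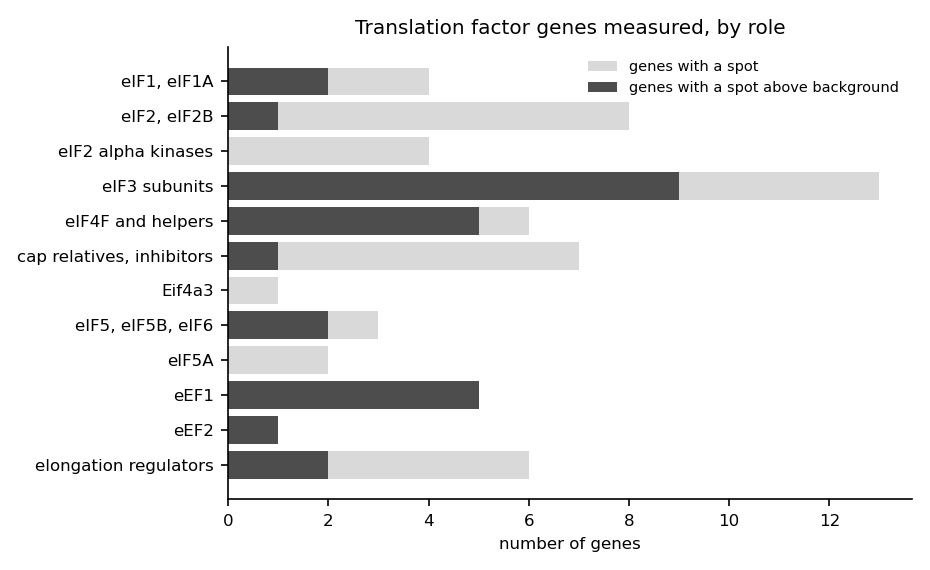
Number of translation factor genes by role (horizontal axis, genes): light bars give the genes with a spot on the array and dark bars those with a spot above background. The eEF1, eIF3 and eIF4F groups were measured in 5 of 5, 9 of 13 and 5 of 6 genes, and the eIF2 alpha kinases in 0 of 4.

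Promoter sequences from RefSeq (GRCm38.p6), covering 250 bases before to 50 after each gene's start, matched 46 of the 61 genes, with 61 windows. The letters searched were picked with these sequences in view. The ETS-type letters CCGGAAG, on either strand, were in 19 of the 61 windows (31.1%), against 8.9% of all 32851 windows. The YY1-type letters AAGATGGC were in 4 (6.6%, against 2.7% of all), those of the TATA box, TATAAA, in 3 (4.9%, against 13.6%) and those of the CCAAT box, CCAAT, in 16 (26.2%, against 37.4%). A match is a description of these letters, not a shown binding site. Counted from the gene's start, the YY1-type match began at base 15 in Eif3f and 27 in Eif4e, both after the start. In Eif4a1 it began at base -166, before the start. The YY1-type letters contain ATG, and whether this is the start codon in Eif3f and Eif4e was not tested. Shown here, 5′ to 3′ on the gene's strand with the matched letters in capitals, are 30 bases around the ETS-type match (CTTCCGG where it lies on the other strand) in 4 eIF3 subunit genes, in Eif2b2 and in Eef1b2, and around the YY1-type match in Eif3f and in both a cap-binding and a helicase gene of eIF4F, all above background on the arrays.
Eif3c (chr7:126566382-126566411, minus strand): aaccttttcctCTTCCGGcgtcgtgcctgt
Eif3d (chr15:77970876-77970905, minus strand): gctgtgacacaCTTCCGGttgtgtctcact
Eif3l (chr15:79075177-79075206, plus strand): gctgggcgggaCTTCCGGtccggccaagca
Eif3m (chr2:105017064-105017093, minus strand): ctgtggctgacCCGGAAGcggttgtgcgta
Eif2b2 (chr12:85219486-85219515, plus strand): cctctctcggcCCGGAAGtgaaacagtgct
Eef1b2 (chr1:63176821-63176850, plus strand): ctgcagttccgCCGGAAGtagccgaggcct
Eif3f (chr7:108934418-108934447, plus strand): tctttctcggcAAGATGGCttctccggccg
Eif4e (chr3:138527283-138527312, plus strand): cagatcgatctAAGATGGCgactgtggaac
Eif4a1 (chr11:69672571-69672600, minus strand): tgctgggttccAAGATGGCtgccccgccgc

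As deposited, no translation factor spot passed the test of cocaine against saline. The limma fit, with a treatment mean and a dye orientation term, called 0 of the 124 spots at a Benjamini-Hochberg adjusted p under 0.05, and 0 of all 43790 spots tested (0%), whose smallest adjusted p was 0.731. At an unadjusted p under 0.05, 2 of the 124 spots were on the denominator side (all spots, 1.1%) and 0 on the numerator side (all spots, 1.18%). The 2 were a spot of Eif2s2, the beta subunit of eIF2, and a spot of Eif3j1, a loosely bound eIF3 subunit, neither above background. The median treatment ratio was -0.12 over the 124 spots and -0.02 over all spots. With 5 arrays an exact sign test of 1 spot cannot go below p = 0.0625.

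Values are given in the order of replicates 1, 2 and 3 with cocaine in Cy5 and replicates 1 and 2 with cocaine in Cy3. Eif2s2 spot 3 had deposited log2 ratios of -0.67, -0.20 and -0.32 with cocaine in Cy5 and -0.48 and -0.15 with cocaine in Cy3, for a treatment ratio of -0.36 ± 0.09 (SE, adjusted p = 0.731, limma). Eif3j1 spot 2 had -0.99, -0.45 and -0.16 with cocaine in Cy5 and -0.53 and -0.13 with cocaine in Cy3, with a ratio of -0.43 ± 0.15 (SE, adjusted p = 0.731, limma). Both spots were below 0 on all 5 arrays, as were Eif2b1, a subunit of eIF2B, and Eif5b spot 4. These were 4 of the 124 spots, while 658 of all 43790 spots (1.5%) were below 0 on all 5 arrays. Another spot of the same eIF2 subunit, Eif2s2 spot 1, had -1.78, -0.16 and 0.29 with cocaine in Cy5 and -0.79 and 0.00 with cocaine in Cy3, on both sides of 0.

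As deposited, the dye coefficient was below 0, that is lower with cocaine in Cy5, at 114 of the 124 spots, as at 41537 of all 43790. Above background it was below 0 at 24 of 34 spots, and at 2494 of all 4021 gene spots. Eif4ebp1 spot 1, of an inhibitor that holds eIF4E, had -0.71, -0.62 and -0.46 with cocaine in Cy5 and 0.47 and 0.72 with cocaine in Cy3. Eif2ak4 spot 3, of the kinase that senses uncharged tRNA, had -0.67, -0.62 and -0.55 with cocaine in Cy5 and 0.69 and 0.73 with cocaine in Cy3. Eef2k spot 3 had -0.58, -0.74 and -0.84 with cocaine in Cy5 and 0.58 and 0.67 with cocaine in Cy3. All 3 spots were below 0 with the first orientation and above 0 with the second, as were the array medians over all spots, at -0.69, -0.57 and -0.52 with cocaine in Cy5 and 0.53 and 0.60 with cocaine in Cy3. The treatment ratios of Eif4ebp1, Eif2ak4 and Eef2k were 0.00 ± 0.06, 0.05 ± 0.04 and -0.05 ± 0.05 (SE, n = 5 arrays each), and none of the 3 spots was above background. Under the reading of Cy5 over Cy3 on every array, where the dye coefficient takes the place of the treatment, 66 of the 124 spots were called, beside 34346 of 43790 spots (78.4%). The 66 included 0 of the 34 spots above background, where 36 of all 4021 such gene spots (0.895%) were called.

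The other dim core factors gave small or scattered deposited ratios. Eif2b5, the catalytic subunit of eIF2B, had -1.37, -0.40 and -0.08 with cocaine in Cy5 and 0.29 and 0.42 with cocaine in Cy3. Eif4ebp2, the eIF4E inhibitor most common in brain, had -1.01, -0.45 and -0.46 with cocaine in Cy5 and 0.29 and 0.21 with cocaine in Cy3. Both were below 0 in each array of the first orientation and above 0 in each of the second, as were the array medians over all spots given above. Eif5a spot 1, just under the background threshold, had -2.22, -0.13 and -0.29 with cocaine in Cy5 and -0.19 and 0.08 with cocaine in Cy3. Eif2ak3 spot 1, of the kinase that senses stress of the endoplasmic reticulum, had -0.72, -0.31 and -0.54 with cocaine in Cy5 and 0.40 and 0.47 with cocaine in Cy3, a treatment ratio of -0.04 ± 0.07 (SE). Eif6 spot 3, of the factor that keeps large subunits from joining, had -1.10, -0.20 and -0.35 with cocaine in Cy5 and -0.46 and 0.14 with cocaine in Cy3, a treatment ratio of -0.35 ± 0.18 (SE). For Eif2ak3 the orientations lay on opposite sides of 0, as for those array medians, while for Eif6 the orientations overlapped. Over all 90 translation factor spots not above background the treatment ratios ran from -0.62 to 0.36. Next after Eif2s2 and Eif3j1 by p came Eif2d, a tRNA-delivery factor that can replace eIF2 (-0.09 ± 0.04 at spot 4), Eif5a2, the second eIF5A gene (-0.10 ± 0.04 at spot 2), and Eif3l (-0.77 ± 0.35, SE, adjusted p = 0.731 for all 3, limma).

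The spots above background lay on the denominator side as deposited, together with other spots of their brightness. All 34 had a treatment ratio below 0 (median -0.47), and so had 4014 of 4021 gene spots above background (median -0.48). The other 90 translation factor spots had a median of -0.05, against -0.02 for gene spots not above background. The trend behind this differed by array. Gene spots under 6.5 and those of 12 or more in log2 brightness had medians of -0.67 and -1.61 on cocaine-in-Cy5 replicate 1 and of 0.56 and -1.31 on cocaine-in-Cy3 replicate 1. On cocaine-in-Cy5 replicate 3 the same 2 classes had -0.55 and 0.44. The source of this trend was not tested.

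**Figure D2:**
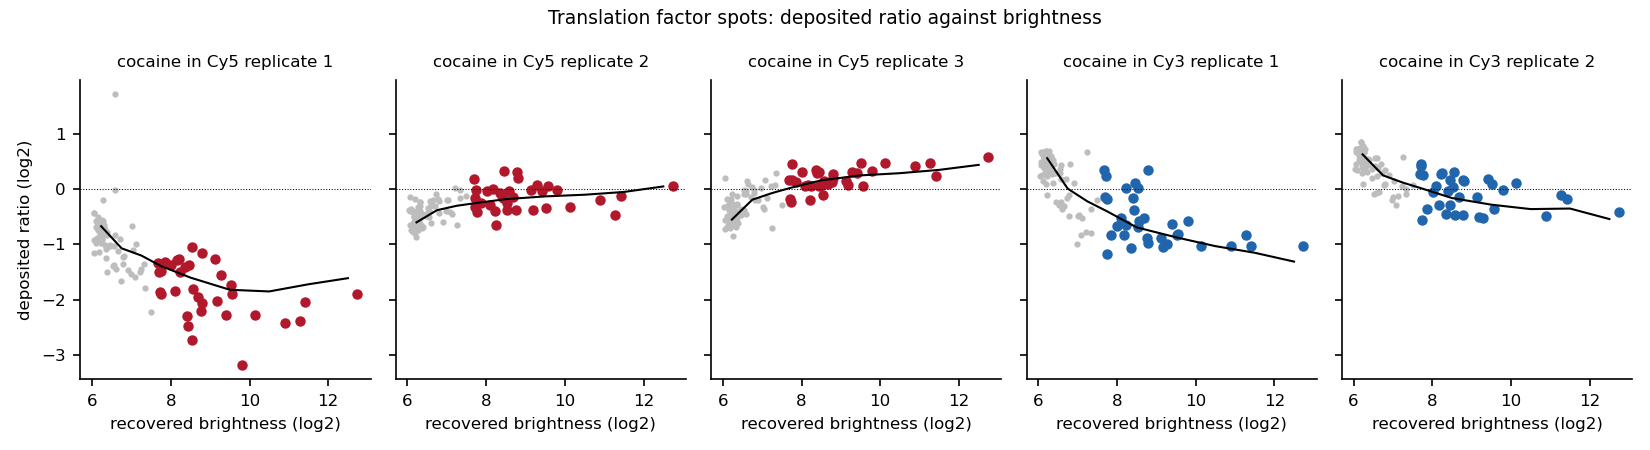
Deposited log2 ratio (vertical axis) against recovered log2 brightness (horizontal axis) of the 124 translation factor spots on each of the 5 arrays, coloured where above background (red for cocaine in Cy5, blue for cocaine in Cy3) and grey otherwise, with the black line joining the medians of all gene spots by brightness class. The spots follow the line of their array, downwards on cocaine-in-Cy5 replicate 1 and both cocaine-in-Cy3 arrays and upwards on cocaine-in-Cy5 replicates 2 and 3.

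After each array's trend with brightness was removed by loess over the gene spots above background, the translation factors had ratios close to 0. The limma fit called 0 of the 34 spots at an adjusted p under 0.05, and 0 of 4021 spots (0%), with a smallest adjusted p of 0.668. At an unadjusted p under 0.05, 3 of the 34 spots were on the numerator side (all 4021 spots, 2.76%) and 2 on the denominator side (all 4021 spots, 3.93%). The median ratio was 0.03, with a range of -0.24 to 0.39, against 0.00 over the 4021 spots. The 95% interval lay within a 2-fold change either way for 34 of 34 spots and for 99.6% of the 4021. The median standard error was 0.10 for the 34 spots and 0.09 for the 4021. On the values as deposited the same held for only 6 of the 34 spots and 829 of the 4021, so this bound rests on the trend removal as well as on the reading of the signs. That no spot passed the test does not show that cocaine and saline were alike in smaller changes. The count of the 34 spots at an unadjusted p under 0.05 was 10 without cocaine-in-Cy5 replicate 1. It was 3 without replicate 2 and 4 without replicate 3 of that orientation. No count is given for the fits without a cocaine-in-Cy3 array, which leave that orientation unreplicated. The share of all 4021 spots was not counted for these fits.

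**Figure D3:**
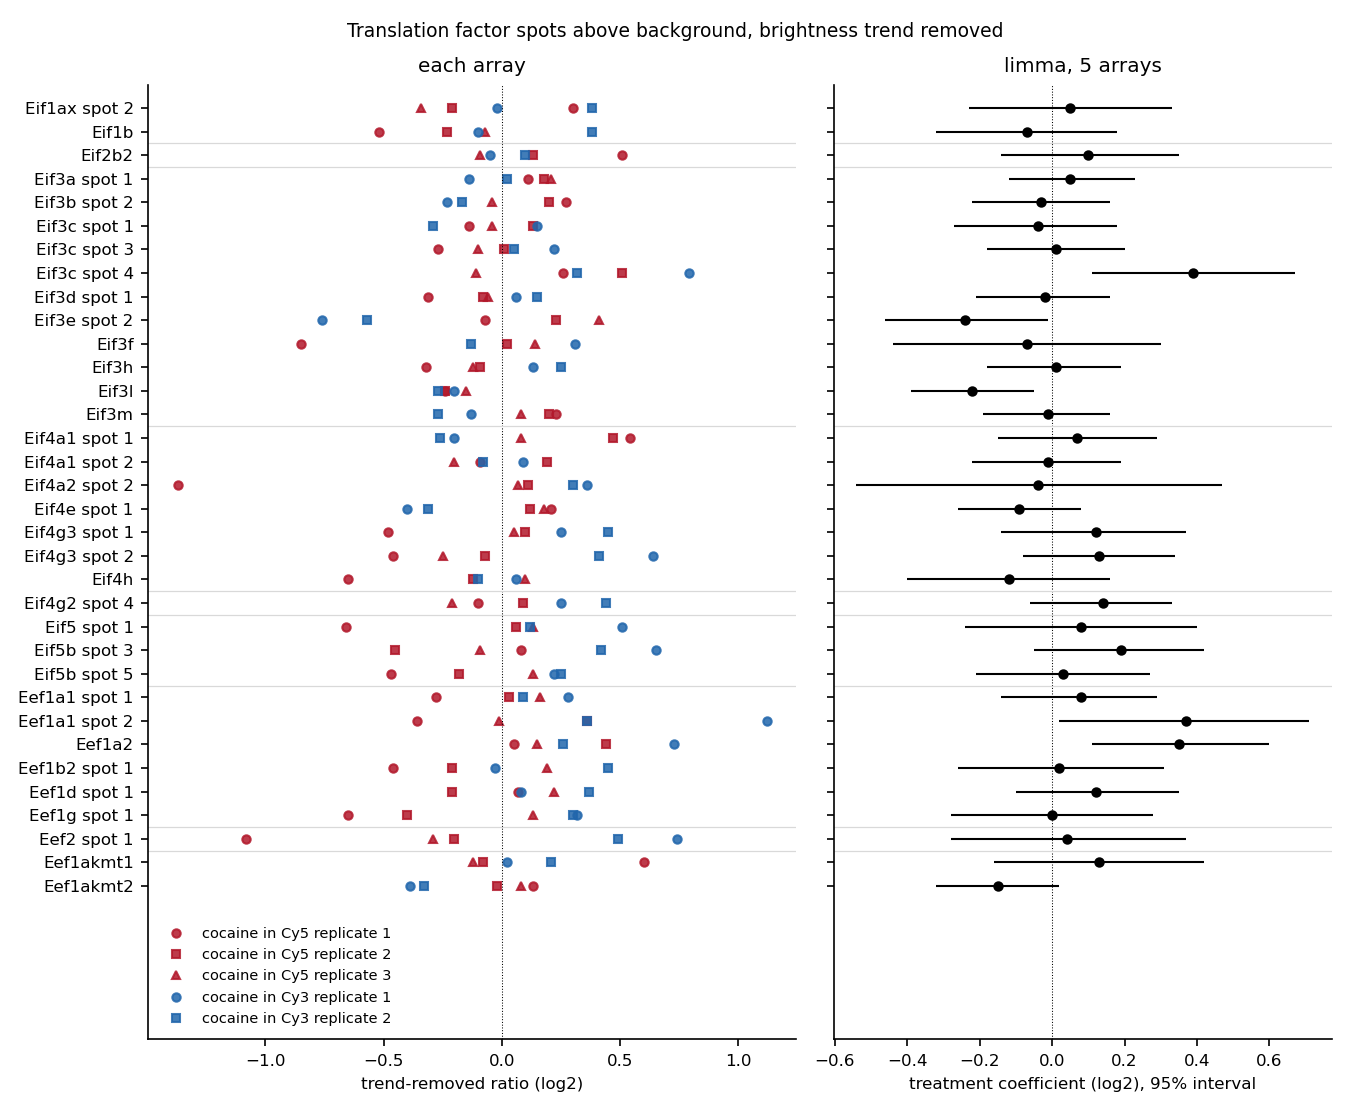
Trend-removed log2 ratio of the 34 translation factor spots above background on each array (left; red, cocaine in Cy5; blue, cocaine in Cy3) and the limma treatment coefficient with its 95% interval over the 5 arrays (right); grey lines part the roles. The coefficients run from -0.24 to 0.39, and Eef1a2 and Eif3l are the spots with all 5 arrays on 1 side of 0.

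The elongation factor eEF1A held 2 of the 3 spots on the numerator side. Eef1a2, the eEF1A form of mature neurons and muscle, had trend-removed log2 ratios of 0.05, 0.44 and 0.15 with cocaine in Cy5 and 0.73 and 0.26 with cocaine in Cy3. All 5 arrays lay above 0, with the cocaine-in-Cy3 replicate 1 array highest. Its treatment ratio was 0.35 ± 0.10 (SE, adjusted p = 0.668, limma). It was the only one of the 34 spots above 0 on all arrays (all 4021 spots, 2.16%). Its ratio ran from 0.24 to 0.47 with each array left out in turn. The recovered log2 brightness of Eef1a2 was 7.68 (SD 0.4), close to the background threshold. Eef1a2 was therefore not among the 28 translation factor spots over a brightness of 8.

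Eef1a1, the eEF1A form made in most other cells, had 2 spots above background that did not match. Spot 2 had trend-removed ratios of -0.36, 0.36 and -0.01 with cocaine in Cy5 and 1.12 and 0.36 with cocaine in Cy3, a ratio of 0.37 ± 0.15 (SE, adjusted p = 0.668, limma). Spot 1 had -0.28, 0.03 and 0.16 with cocaine in Cy5 and 0.28 and 0.09 with cocaine in Cy3, a ratio of 0.08 ± 0.09 (SE, n = 5 arrays). With each array left out in turn spot 2 ran from 0.18, without cocaine-in-Cy3 replicate 1, to 0.56, without cocaine-in-Cy3 replicate 2. The 2 spots were up to 0.84 apart on 1 array. Eef1a1 and Eef1a2 are close paralogs, and whether their probes share target RNA was not tested.

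The other eEF1 genes gave no spot at an unadjusted p under 0.05. Eef1b2, the exchange factor that reloads eEF1A with GTP, had trend-removed ratios of -0.46, -0.21 and 0.19 with cocaine in Cy5 and -0.03 and 0.45 with cocaine in Cy3 (0.02 ± 0.12, SE). Eef1g, the gamma subunit of the same complex, had -0.65, -0.40 and 0.13 with cocaine in Cy5 and 0.32 and 0.30 with cocaine in Cy3 (0.00 ± 0.12, SE). Eef1d, the delta subunit, had 0.07, -0.21 and 0.22 with cocaine in Cy5 and 0.08 and 0.37 with cocaine in Cy3 (0.12 ± 0.09, SE). For each of the 3, arrays lay on both sides of 0. A second Eef1d spot, not above background, had a deposited ratio of 1.73 on cocaine-in-Cy5 replicate 1 and between -0.62 and 0.57 on the other 4 arrays.

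Eef2, whose product moves the ribosome by 1 codon, split by dye orientation. Its spot 1 had trend-removed ratios of -1.08, -0.20 and -0.29 with cocaine in Cy5 and 0.74 and 0.49 with cocaine in Cy3. The cocaine-in-Cy5 arrays lay below both cocaine-in-Cy3 arrays, as at 22.5% of all 4021 gene spots above background. The treatment ratio was 0.04 ± 0.14 (SE, adjusted p = 0.945, limma) beside a dye coefficient of -0.57. Among the elongation regulators, the lysine methyltransferases of eEF1A had ratios of 0.13 ± 0.12 (Eef1akmt1) and -0.15 ± 0.07 (Eef1akmt2, SE, n = 5 arrays each).

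The eIF3 subunits fell on both sides, with a median of -0.02 over 11 spots and 7 of them below 0. Eif3l, a subunit at the edge of the complex, had trend-removed ratios of -0.24, -0.24 and -0.15 with cocaine in Cy5 and -0.20 and -0.27 with cocaine in Cy3. These 5 values lay close together, all on the denominator side, with a treatment ratio of -0.22 ± 0.07 (SE, adjusted p = 0.668, limma). It was the only one of the 34 spots below 0 on all arrays (all 4021 spots, 2.59%). With each array left out in turn the ratio of Eif3l ran from -0.24 to -0.20, and its dye coefficient was 0.01.

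Eif3e, a subunit known in human cells to contact eIF4G, had trend-removed ratios at spot 2 of -0.07, 0.23 and 0.41 with cocaine in Cy5 and -0.76 and -0.57 with cocaine in Cy3. The cocaine-in-Cy5 arrays lay above both cocaine-in-Cy3 arrays, as at 22.2% of all 4021 gene spots above background. The treatment ratio of -0.24 ± 0.09 (SE, adjusted p = 0.668, limma) stood beside a dye coefficient of 0.43 ± 0.09 (SE, adjusted p = 0.104, limma). Leaving out each array gave treatment ratios of -0.29 to -0.17. The recovered log2 brightness of this spot was 7.75 (SD 0.43), also close to the background threshold.

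The spots of Eif3c, a core scaffold subunit, disagreed. Spot 4 had trend-removed ratios of 0.26, 0.51 and -0.11 with cocaine in Cy5 and 0.79 and 0.32 with cocaine in Cy3, a ratio of 0.39 ± 0.12 (SE, adjusted p = 0.668, limma). Leaving out each array gave 0.27 to 0.51 for spot 4. Spots 1 and 3 of the same gene had ratios of -0.04 ± 0.09 and 0.01 ± 0.08 (SE, n = 5 arrays each). Eif3a, the largest subunit, had 0.11, 0.18 and 0.21 with cocaine in Cy5 and -0.14 and 0.02 with cocaine in Cy3, a ratio of 0.05 ± 0.07 (SE). The ratios of Eif3b, Eif3d, Eif3f, Eif3h and Eif3m ran from -0.07 to 0.01, none at an unadjusted p under 0.05.

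The eIF4F genes gave 0 of 7 spots at an unadjusted p under 0.05, with ratios from -0.12 to 0.13. Eif4e, the cap-binding protein, had trend-removed ratios at spot 1 of 0.21, 0.12 and 0.18 with cocaine in Cy5 and -0.40 and -0.31 with cocaine in Cy3. The values were alike within each orientation and on opposite sides between them. The treatment ratio was -0.09 ± 0.07 and the dye coefficient 0.26 ± 0.07 (SE). At Eif4e the cocaine-in-Cy5 arrays lay above both cocaine-in-Cy3 arrays, as at 22.2% of all 4021 gene spots above background. Eif4g3, a scaffold that ties the cap to eIF3, went the other way at both spots: spot 2 had -0.46, -0.07 and -0.25 with cocaine in Cy5 and 0.64 and 0.41 with cocaine in Cy3. Its 2 spots had treatment ratios of 0.12 and 0.13.

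The helicase genes of eIF4F had treatment ratios near 0. Eif4a1, the widely expressed form, had treatment ratios of 0.07 ± 0.09 and -0.01 ± 0.09 at its 2 spots (SE). Eif4a2, the form common in brain, had trend-removed ratios at spot 2 of -1.37, 0.11 and 0.07 with cocaine in Cy5 and 0.36 and 0.30 with cocaine in Cy3. Cocaine-in-Cy5 replicate 1 stood far below the other 4, and the ratio of -0.04 ± 0.22 (SE, adjusted p = 0.971, limma) became 0.21 without that array. Eif4h, which aids the helicase, had a ratio of -0.12 ± 0.12 (SE). Eif4g2, a scaffold relative that lacks the part that binds eIF4E, had 0.14 ± 0.08 (SE).

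Of the remaining spots above background, Eif5, whose product promotes GTP hydrolysis by eIF2 at the start codon, had trend-removed ratios of -0.66, 0.06 and 0.13 with cocaine in Cy5 and 0.51 and 0.12 with cocaine in Cy3 (0.08 ± 0.14, SE). Eif5b, the subunit joining GTPase, had ratios of 0.19 ± 0.10 and 0.03 ± 0.10 at 2 spots. Eif2b2 had 0.10 ± 0.10, Eif1ax 0.05 ± 0.12 and Eif1b -0.07 ± 0.11 (SE, n = 5 arrays each). The last pair belongs to the scanning factors that help choose the start codon.

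The 34 spots varied by array and by dye orientation. Their trend-removed standard deviation was 0.45 on cocaine-in-Cy5 replicate 1 and between 0.17 and 0.39 on the other 4 arrays. On cocaine-in-Cy5 replicate 1 the lowest were Eif4a2 spot 2, Eef2 spot 1 (-1.08) and Eif3f (-0.85). All 3 cocaine-in-Cy5 arrays lay above both cocaine-in-Cy3 arrays at 7 spots (all 4021 spots, 22.2%) and below them at 11 spots (all 4021 spots, 22.5%). The 7 were Eef1akmt2, Eif3a spot 1, Eif3b spot 2, Eif3e spot 2, Eif3m, Eif4a1 spot 1 and Eif4e spot 1. The 11 were Eef1g, Eef2, Eif3c spot 3, Eif3d, Eif3h, Eif4a2, Eif4g2, both Eif4g3 spots and both Eif5b spots. The dye coefficient was called at 0 of 34 spots and 0 of 4021 (0%), while an unadjusted p under 0.05 was reached on the cocaine-in-Cy5 side at 5 spots (all 4021 spots, 9.95%) and on the cocaine-in-Cy3 side at 6 (all 4021 spots, 11.6%). The 2 cocaine-in-Cy3 arrays correlated at 0.67 over the 34 spots and at 0.53 over the 4021. The 3 pairs of cocaine-in-Cy5 arrays correlated at 0.33 (replicates 1 and 2), -0.05 (replicates 1 and 3) and 0.19 (replicates 2 and 3) over the 34 spots, and the 6 pairs of opposite orientation between -0.39 and 0.05, as a description across spots that share an array and its trend removal.

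**Figure D4:**
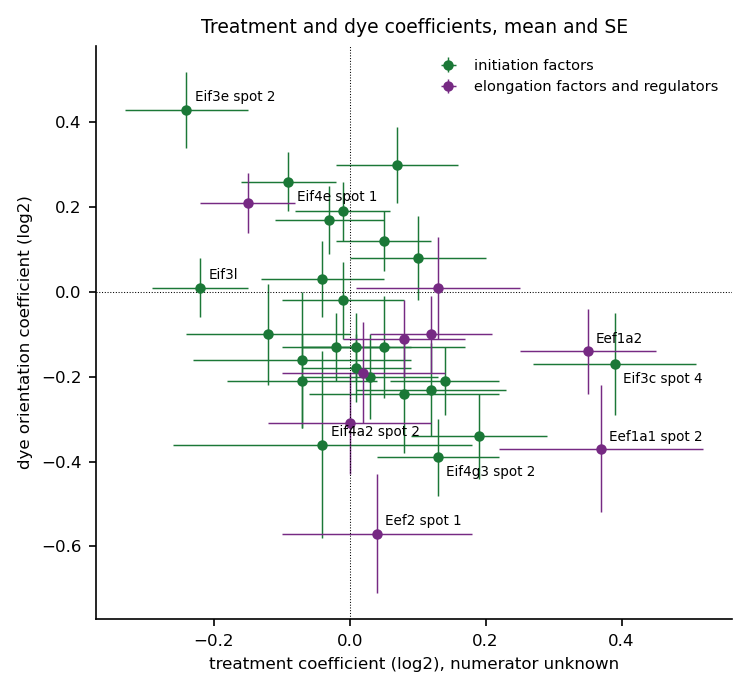
Dye orientation coefficient (vertical axis, log2) against treatment coefficient (horizontal axis, log2, numerator unknown) of the 34 spots above background after trend removal, with standard errors as bars; green marks initiation factors and purple elongation factors and regulators. Eef2 spot 1 (-0.57) and Eif3e spot 2 (0.43) are the ends of the dye axis, and Eif3l lies near 0 on it.

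With the sign of cocaine-in-Cy5 replicate 1 turned, 0 spots were called in either fit, and the median ratio of the 124 spots as deposited became 0.193. After trend removal the same change gave Eef1a2 0.34, Eif3c spot 4 0.30, Eif3l -0.14, Eef1a1 spot 2 0.49 and Eif3e spot 2 -0.21. It put 7 of 34 spots at an unadjusted p under 0.05. The share of all gene spots above background was not counted for that fit. Under the reading of Cy5 over Cy3 the trend-removed ratios of Eef1a2 and Eif3l were -0.14 and 0.01. No direction between cocaine and saline follows for any of these genes.

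Messages with a 5′ run of pyrimidines, which mTORC1 signalling controls at translation (the TOP messages), include most elongation factors. The TOP messages above background here were those of eEF1 and Eef2 and of the eIF3 subunits Eif3e, Eif3f and Eif3h. Over their 10 spots the median trend-removed ratio was 0.03, with 2 spots below 0, Eif3e spot 2 and Eif3f. Over the other 24 translation factor spots it was 0.02, with 11 below 0.

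Genes around these factors in the pathway also gave no call in either fit. Of the translation termination and recycling genes, 2 spots above background (Abce1, Gspt1) had trend-removed ratios of 0.01 and -0.13. The poly(A)-binding protein Pabpc1, its partner Paip2 and the TOP regulator Larp1 had 4 such spots, from -0.03 to 0.17. For mTORC1 and S6 kinase signalling, 5 of 12 genes were above background, with a median of -0.07 and Rheb, the activator of mTORC1, at -0.19 ± 0.12 (SE). Among 12 genes of the integrated stress response, 4 were above background, from -0.22 ± 0.13 for Impact, which restrains Eif2ak4, to 0.06 ± 0.11 for Ddit4, an inhibitor of mTORC1 (SE). Of 19 cytosolic tRNA synthetase genes, 8 were above background. An unadjusted p under 0.05 was reached by Hars at 0.30 ± 0.09 (numerator side, all 4021 spots, 2.76%) and Qars at -0.20 ± 0.08 (denominator side, all 4021 spots, 3.93%). The adjusted p was 0.668 for both (limma). The cocaine-in-Cy5 arrays of Hars (-0.03, 0.00 and -0.30) lay below both cocaine-in-Cy3 arrays (0.89 and 0.54), as at 22.5% of the 4021 spots. Those of Qars (-0.18, 0.04 and 0.15) lay above both (-0.42 and -0.38), as at 22.2%. Of 9 genes that make hypusine or diphthamide, the modified residues of eIF5A and eEF2, only Dohh was above background (0.03 ± 0.10, SE).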

How the data were processed

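Per the labels' protocols, accumbens RNA came from a PicoPure extraction, and 50 ng of it went into linear amplification with a Cy5 or Cy3 label. Images were read with Agilent Feature Extraction, per the submitters' processing notes. Its version and normalization are not given in the labels. The authors deposited 1 log2 ratio of the channels per array and feature, for 44290 features without missing values. The 500 features at 0 on all arrays were left out, leaving 43790. Gene names come from the platform annotation (32042 features with 1 symbol, 47 with several, 12201 with none) and can be old. In the cocaine-in-Cy5 columns at least 99.94% of ratios were exact fractions, against 0.21% and 0.15% in the cocaine-in-Cy3 columns. Log2 brightness was estimated from the cocaine-in-Cy5 fractions alone (numba 0.67.0). The estimate assumed a log2 spread of 0.25 between arrays and a lowest signal of 35 counts. The threshold over background was 7.5 and each array's trend was a loess of span 0.3. Brightness served only the threshold and the trend. Treatment and dye orientation were fitted with limma 3.58.1 in R 4.3.3 (lmFit, eBayes; 3 residual degrees of freedom), two-sided, with Benjamini-Hochberg adjustment over all spots tested. Scripts were checked on simulated data.

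Members named with values were the core factors of each role, the 5 smallest p in each fit, the ends of the range and genes with several spots above background. Members outside these, such as Eef1d and Eif4h, were chosen after their values were seen. The members, role lists, marker lists and tests were chosen with earlier results of these data known. The number of arrays limits the precision. Alternatives changed the reading of the signs, dye term, scaling, array weights, threshold, trend removal and the arrays left out.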

Additional observations from a re-analysis of the deposited data

Results flagged for a closer look

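Eif4a2 spot 2 stood apart on cocaine-in-Cy5 replicate 1, where its trend-removed log2 ratio was -1.37, while the other 4 arrays ran from 0.07 to 0.36. The gap, over the range of the 5 arrays, was above Dixon's 95% critical value of 0.71. Chance alone marks about 1 in 20 such sets of 5. Among translation factor spots above background this was 1 of 34 (2.94%), against 197 of 4021 gene spots (4.9%), of which 115 stood apart on that same array. The part of that array in the result was not tested beyond leaving it out.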

How the results depend on the processing

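The 5 arrays, 3 against 2 in orientation, limit every result, and ratios of spots not above background are given as deposited and were not trend-removed. No translation factor spot was called after trend removal under any alternative run, nor as deposited except under 2 settings. The reading of Cy5 over Cy3 on every array called 66 of 124 spots as deposited (34346 of all 43790 spots), and the cocaine-in-Cy5 arrays alone called 60 (33630 of all). In the cocaine-in-Cy5 arrays alone, treatment and dye cannot be told apart. The trend-removed median became -0.131 under the reading of Cy5 over Cy3. Without each array in turn 0 were called in both fits, and the median ran from -0.195 to -0.036 as deposited and from 0.009 to 0.056 after trend removal. Counts at an unadjusted p under 0.05 moved more. As deposited they were 2 and became 67 under the Cy5 over Cy3 reading (all spots, 34721 of 43790). On the cocaine-in-Cy5 arrays alone they were 63. They were 44 with quantile normalization, 21 with array weights, 16 without cocaine-in-Cy5 replicate 1, 7 with no dye term and 4 with median centring. Without cocaine-in-Cy5 replicates 2 and 3 they were 1 and 6. After trend removal they were 5 and became 11 under the Cy5 over Cy3 reading (all spots, 867 of 4021). They were 10 without cocaine-in-Cy5 replicate 1, 9 with array weights and 3 over a brightness of 8, with no dye term or with gene means. Without cocaine-in-Cy5 replicates 2 and 3 they were 3 and 4. Except under the Cy5 over Cy3 reading, the matching shares of all spots were not counted. These counts are therefore not results about translation factors. The causes were not tested.

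Some single ratios changed sign. As deposited, Eif3l was 0.00 under the Cy5 over Cy3 reading, and Eif2d spot 4 and Eif5a2 spot 2 were 0.13 and 0.16 with the sign of cocaine-in-Cy5 replicate 1 turned. After trend removal, that turn gave Eif4a1 spot 2 0.01 and Eif4a2 spot 2 0.42. Median centring in place of the loess gave Eef1a1 spot 1 -0.10, Eef1b2 -0.10 and Eef1g -0.15. Without the dye term Eef1b2 was -0.01, Eef1g -0.06 and Eef2 -0.07. Array weights gave Eif4a1 0.06, Eif4a2 0.18 and Eef1g -0.01, and the gene mean gave Eif4a1 0.03. The Cy5 over Cy3 reading gave Eef1a2 -0.14, Eif3c spot 4 -0.17, Eif3l 0.01, Eef1a1 spot 2 -0.37, Eif3e 0.43, Eif4e 0.26, Eif5 -0.24, Eef1a1 spot 1 -0.11, Eef1b2 -0.19, Eef1g -0.31 and Eef2 -0.57. Leaving out each array in turn gave ranges of -0.16 to 0.21 for Eif4a2, -0.02 to 0.21 for Eif5, -0.11 to 0.09 for Eef1g, -0.04 to 0.18 for Eef2, -0.07 to 0.03 for Eif4a1 and -0.09 to 0.14 for Eef1b2. The turned sign and, after trend removal, the Cy5 over Cy3 reading were chosen after seeing the data. Each value is already a within-array ratio of both treatments, so no further pairing was fitted.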
